A study of Homo sapiens with 2 samples.

Results

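Heterogeneous nuclear ribonucleoproteins (hnRNPs) are abundant nuclear proteins that bind RNA while it is being made. The 10 hnRNP genes described here are HNRNPA1, HNRNPA2B1, HNRNPC, HNRNPD, HNRNPDL, HNRNPH1, HNRNPH3, HNRNPK, HNRNPR and HNRNPU. They were chosen by gene symbol, taking every event listed under these symbols in 5 tables of splicing events. They hold 260 of the 159490 events and are 10 of the 12254 genes listed. The study asked which exons respond when splicing is perturbed, here with amiloride, a diuretic also known to alter splicing. Both groups are polyA+ RNA of HEK293T, an established human embryonic kidney cell line, with 1 library each. The control cells were untreated, and the amiloride cells were kept in 300 µg/mL amiloride for 6 h.

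In a nascent transcript, hnRNPs coat the RNA and compete with other splicing factors, and many of them make the spliceosome pass over exons to which they bind. Many hnRNP genes are themselves alternatively spliced, and several hnRNPs control the splicing of their own transcripts. A common route is a form with an early stop codon, which nonsense-mediated decay can remove.

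The tables place each event on the genome and give its exon boundaries. They number the libraries without naming the condition, so read counts and inclusion levels were not used here. No difference between control and amiloride is therefore given for any hnRNP event, and with 1 library per group such a difference would have no replicate check. What follows is the structure of the listed events: their number, position, length, splice sites and reading frame. A listed event says nothing about how often either form was made. The counts cover every row of the tables, so they are given without intervals. Which events came to be listed can depend on the reads obtained from each library, and this was not examined.

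The sequences that separate the known or listed forms of 6 hnRNP genes are shown first. All are given 5′ to 3′ on the transcribed strand, from GRCh37. In the first 3 lines capitals mark a whole skipped exon, with 20 intron bases before it and 6 after it. HNRNPA2B1 (chr7:26237451-26237486, minus strand) has an exon that its canonical transcript lacks. HNRNPD exon 2 (chr4:83292681-83292737, minus strand) and exon 7 (chr4:83277690-83277836, minus strand) are coding exons whose length is a multiple of 3.
HNRNPA2B1 36-base exon: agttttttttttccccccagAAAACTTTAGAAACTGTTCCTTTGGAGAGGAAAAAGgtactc
HNRNPD exon 2: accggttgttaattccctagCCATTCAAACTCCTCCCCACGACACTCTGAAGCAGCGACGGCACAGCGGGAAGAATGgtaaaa
HNRNPD exon 7: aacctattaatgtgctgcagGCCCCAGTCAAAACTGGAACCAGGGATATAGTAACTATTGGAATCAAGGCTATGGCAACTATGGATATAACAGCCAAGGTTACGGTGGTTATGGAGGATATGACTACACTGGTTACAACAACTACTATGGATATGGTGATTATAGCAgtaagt
In the next 4 lines capitals mark the stretch added by an alternative splice site, with 20 bases on each side. The stretches lie in HNRNPC (chr14:21699117-21699155, minus strand), HNRNPH3 (chr10:70098400-70098444, plus strand), HNRNPU (chr1:245026919-245026975, minus strand) and HNRNPR (chr1:23645182-23645190, minus strand).
HNRNPC exon 4, 39 added bases: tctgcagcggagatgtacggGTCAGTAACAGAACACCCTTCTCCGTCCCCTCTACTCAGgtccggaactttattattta
HNRNPH3 exon 4, 45 added bases: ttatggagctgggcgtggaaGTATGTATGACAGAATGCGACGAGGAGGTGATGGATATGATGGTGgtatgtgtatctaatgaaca
HNRNPU exon 1, 57 added bases: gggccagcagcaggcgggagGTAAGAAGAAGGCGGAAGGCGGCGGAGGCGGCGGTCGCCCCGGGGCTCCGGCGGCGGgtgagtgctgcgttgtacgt
HNRNPR exon 8, 9 added bases: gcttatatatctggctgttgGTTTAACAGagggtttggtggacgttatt

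Of the 260 hnRNP events, 164 were skipped exons and 88 were pairs of mutually exclusive exons, in which a form carries either exon of the pair. Skipped exons were thus 63.1% of the hnRNP events against 71.1% of all events listed, and mutually exclusive exons 33.8% against 25.0%. Alternative 5′ splice sites gave 6 events in 3 genes, 2.31% of the hnRNP events against 1.64% of all events. Alternative 3′ splice sites gave 2 events in 2 genes, 0.769% against 1.80%. No retained intron was listed for any of the 10 genes, and such events are only 0.424% of all events, so few could be expected among 260. HNRNPA2B1 had the most events, 41, and HNRNPK the fewest, 12. The median hnRNP gene had 15.5 skipped-exon events, between 9 in HNRNPK and 25 in HNRNPA2B1. Over the 11965 genes with such an event, the median was 6 and the quartiles were 2 and 13. The 10 hnRNP genes were selected with earlier results known and were not matched to others by expression. The counts therefore describe them and are not a test.

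**Figure D1:**
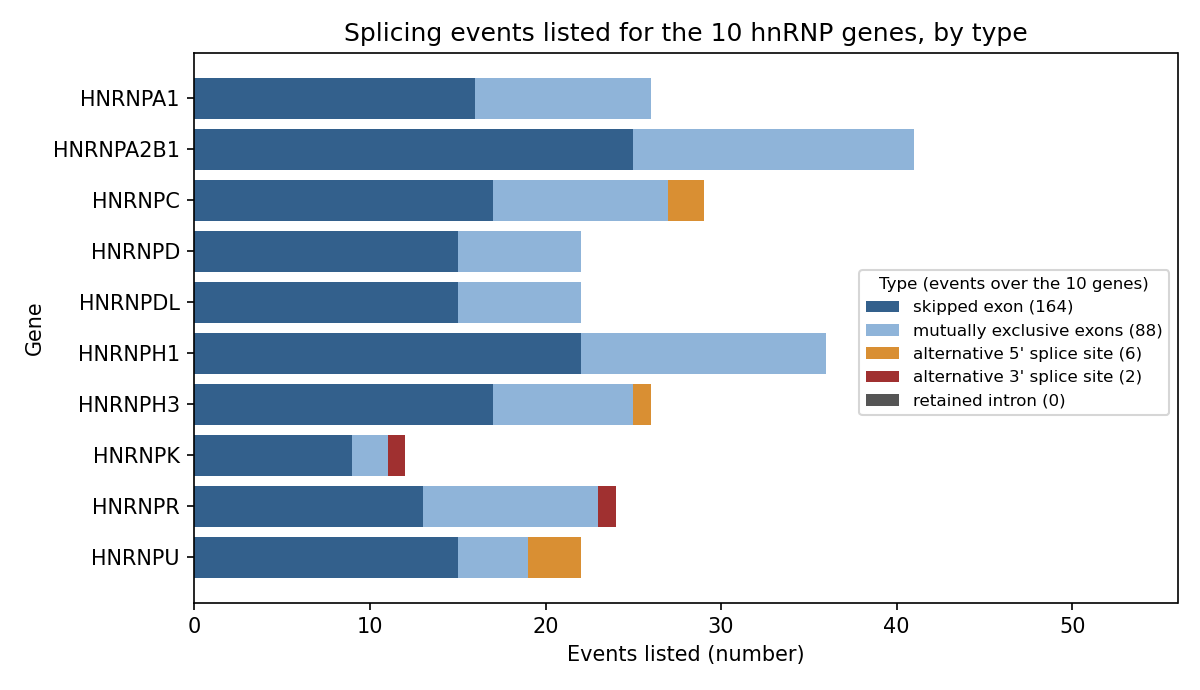
Number of listed events (x axis) for each hnRNP gene (y axis), with bar segments for the 5 event types. Skipped exons (164) and mutually exclusive exons (88) make up nearly all bars, and no retained intron is listed.

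The 164 events fell on 78 distinct exons, 6 to 10 in each gene. An exon here is an exact start and end on a strand. Exon numbers follow the Ensembl canonical transcript in GENCODE release 44. Of the exons between the first and the last of that transcript, the median hnRNP gene had 84.5% listed as skipped, against 57.1% over 10659 genes. Those 10659 genes all had a skipped-exon event, and neither expression nor read depth was matched. All exons between the first and the last were listed in HNRNPA2B1 and HNRNPDL, while HNRNPK had 8 of 15. Coding exons of the canonical transcript accounted for 62 of the 78, and 9 held both UTR and coding bases. A further 3 were coding exons with another end, 2 lay in the 5′UTR, and 2 were absent from the canonical transcript. Only 29 of the 78 exons, 37.2%, were listed in exactly 1 event, against 60.0% of all listed skipped exons. Repeated listing means that an exon was paired with different flanking exons. Events on different exons can also share 1 skip junction, which joins the flanking exons, and then have the same skipping form. The 164 events had 118 distinct skip junctions, and skipping forms are counted below by distinct junction.

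**Figure D2:**
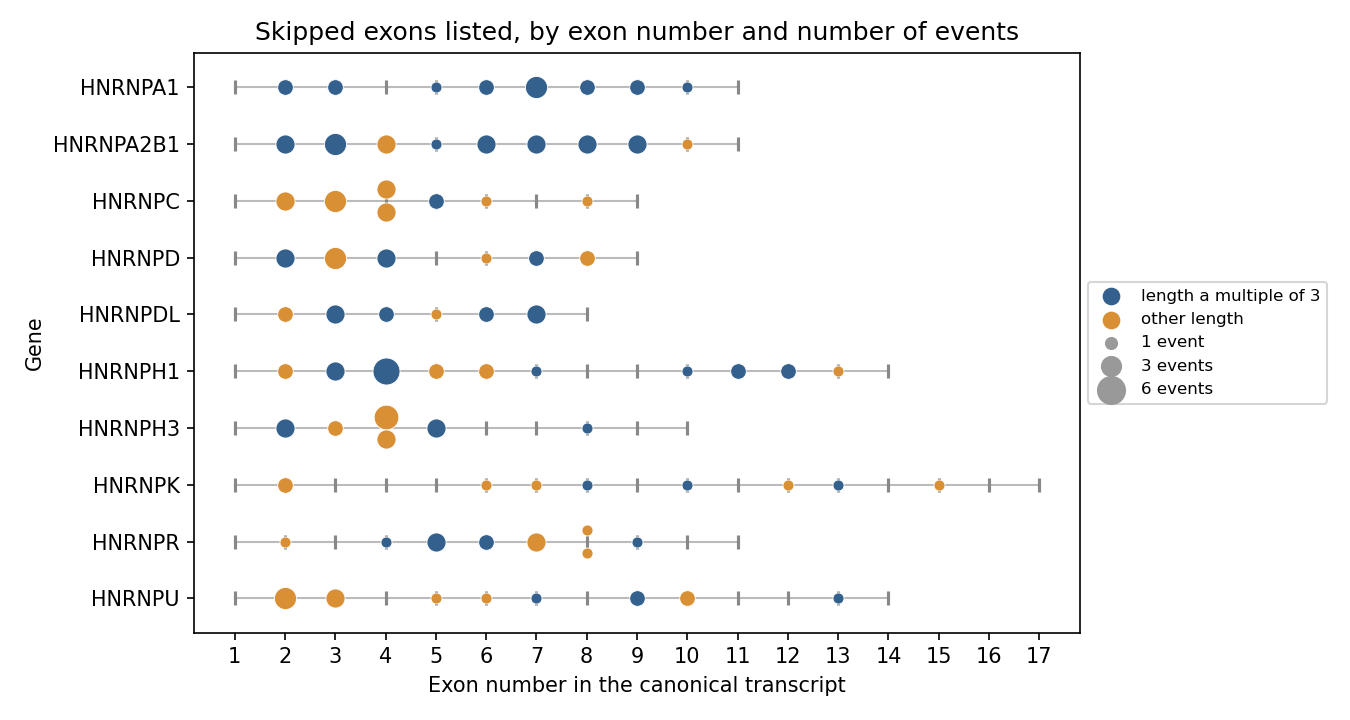
Each row is an hnRNP gene, each tick an exon of its canonical transcript by number (x axis), and each circle a listed skipped exon with its area set by the number of events. The 2 exons absent from the canonical transcripts are left out, and HNRNPH1 exon 4, with 6 events, has the largest circle.

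The A/B type proteins HNRNPA1 and HNRNPA2B1 bind RNA through RNA recognition motifs and carry a glycine-rich tail. HNRNPA1 represses many exons by binding silencer elements. All 8 of its listed exons had a length that is a multiple of 3, from 60 bases in exon 10 to 156 bases in exons 8 and 9. Exon 7 (chr12:54676584-54676658, 75 bases) had the most events, 4. Of the 12 distinct skipping forms of HNRNPA1, 11 kept the canonical stop codon. The exception was loss of exon 10, which holds that stop. Loss of exon 8 alone (chr12:54676863-54677018) left 320 of 372 codons. Mutually exclusive exons gave 10 events in HNRNPA1, and in 8 of them both forms read in frame to the canonical stop.

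HNRNPA2B1 encodes the A2 and B1 proteins, which differ by an insert near the amino terminus. The 36-base exon shown above was its shortest. It lies in an intron between coding exons 1 and 2, and including it raised the reading frame from 341 to 353 codons. The longest was exon 4 (chr7:26236427-26236637, 211 bases), whose length is not a multiple of 3. The 3 distinct HNRNPA2B1 skipping forms with an early stop all lacked exon 4. Skipping it alone left 101 codons before a stop 530 bases upstream of the last exon junction. Exon 3 (chr7:26236935-26237081, 147 bases) had the most events, 4, and 12 of the 18 distinct skipping forms of this gene were in frame. There were 16 events of mutually exclusive exons, the most among the 10 genes.

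HNRNPC forms tetramers on nascent RNA, binds runs of uridines, and is made as the C1 and C2 proteins. Both of its alternative 5′ splice site events concerned the 39 bases after exon 4. The canonical transcript uses the upstream site, and the downstream site lengthened the frame from 293 to 306 codons. The second event joined the same sites to exon 6 and gave 277 and 290 codons. Exon 3 (chr14:21702112-21702388, 277 bases) holds the start codon, was the longest listed exon of all 78, and had the most events in HNRNPC, 4. The canonical start codon was missing from 4 of the 10 distinct skipping forms, which came from 10 of the 17 events. The shortest of the 78 was HNRNPC exon 2 (chr14:21731470-21731495, 26 bases), which lies in the 5′UTR. Loss of exon 2 alone left the coding sequence as it was. Only 1 of the 7 HNRNPC exons, exon 5 with 48 bases, had a length that is a multiple of 3, and the gene had 10 events of mutually exclusive exons.

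HNRNPD, also named AUF1, binds AU-rich elements and affects the decay of mRNAs, and HNRNPDL is its close relative. The known HNRNPD proteins differ by exons 2 and 7, both of which were listed. Exon 2 (57 bases) was the shortest in the gene, and its loss left 336 of 355 codons. Loss of exon 7 (147 bases) left 306 codons. In contrast, exon 3 (chr4:83280624-83280792, 169 bases) was the longest and had the most events, 4. Its 4 distinct early-stop forms, from 8 events, all lacked exon 3, and skipping it alone ended the frame after 105 codons, 611 bases before the last junction. Mutually exclusive exons gave 7 events.

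In HNRNPDL the 7 listed exons ran from 93 to 171 bases. Exon 7 (chr4:83347190-83347282, 93 bases) was the shortest and had 3 events, as many as exon 3. Without exon 7 the frame ended at another stop after 410 codons, against 420. The longest was exon 6 (chr4:83347616-83347786, 171 bases), and its loss left 363 codons. An exon of 105 bases in the 3′UTR (chr4:83346716-83346820) occurs only in GENCODE transcripts annotated as targets of nonsense-mediated decay. Between exons 7 and 8, its inclusion did not alter the coding sequence. It moved the canonical stop from 22 to 127 bases upstream of the last junction, which is past the 50 bases used here for an early stop. Between exons 6 and 8, without exon 7, its inclusion changed the frame from 410 to 445 codons, both ending at another stop past the last junction. HNRNPDL had 7 events of mutually exclusive exons.

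HNRNPH1 and HNRNPH3 belong to the H/F family, which binds runs of guanines. HNRNPH1 exon 4 (chr5:179047893-179048036, 144 bases) had 6 events, the most of any of the 78 exons. Its loss alone left 401 of 449 codons. Exon 4 is printed here in capitals with 20 intron bases before it and 6 after it, since it was listed in more events than any other exon with the same start and end.
HNRNPH1 exon 4: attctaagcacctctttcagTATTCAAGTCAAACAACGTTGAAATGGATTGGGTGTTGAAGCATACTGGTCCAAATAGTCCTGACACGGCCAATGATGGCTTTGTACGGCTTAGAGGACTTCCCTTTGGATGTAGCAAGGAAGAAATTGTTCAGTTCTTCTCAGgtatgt
Long jumps were found in this gene alone. All 9 events that removed 7 or more canonical exons, with up to 11 removed, were in HNRNPH1. They had 6 distinct skip junctions, none of them annotated. The shortest listed exon was exon 13 (chr5:179042547-179042596, 50 bases), whose loss lengthened the frame to 472 codons. Exon 6 (chr5:179045146-179045324, 179 bases) was the longest, and 14 events were of mutually exclusive exons.

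For HNRNPH3, a smaller relative, exon 4 was listed with both of its ends. The end of the canonical transcript gave 185 bases (chr10:70098260-70098444), the longest exon of this gene. The other end gave 140 bases (chr10:70098260-70098399) and had the most events, 5. These ends are also its alternative 5′ splice site event, and the 45 bases between them separated forms of 346 and 331 codons. Skipping exon 3 alone left 71 codons and skipping exon 4 alone left 88, both with an early stop. Skipping both removed 324 bases and restored the frame, with 238 codons. The shortest exon was exon 5 (chr10:70098897-70098983, 87 bases), and 8 events were of mutually exclusive exons. The 17 skipped-exon events of HNRNPH3 had 9 distinct skip junctions, of which 1 was annotated.

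HNRNPK binds C-rich RNA through KH domains. It had the fewest skipped-exon events, 9, and 2 events of mutually exclusive exons. Exon 2 (chr9:86593288-86593367, 80 bases), in the 5′UTR, had the most events, 2. Its longest exon, exon 10 (chr9:86587759-86587887, 129 bases), left 421 of 464 codons when skipped. Loss of the shortest, exon 6 (chr9:86590377-86590420, 44 bases), ended the frame after 77 codons, 1083 bases before the last junction. Early stops were found in 4 of the 9 skipping forms. The alternative 3′ splice site event changed the start of the last exon by 60 bases (chr9:86584296-86584355, minus strand). The upstream site of the canonical transcript gave 464 codons and the downstream site 463, with another stop codon. Both sites follow a pyrimidine tract, and capitals mark the first exon bases after each of them.
HNRNPK upstream 3′ splice site: ttttttcttttcttttatagTGT
HNRNPK downstream 3′ splice site: atattttttcttttttatagTGT

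HNRNPR, a relative of SYNCRIP, binds RNA through RNA recognition motifs. Its exon 7 (chr1:23648021-23648156, 136 bases) had 3 events, as many as exon 5. Skipping exon 7 alone ended the frame after 263 codons. Skipping exons 6, 7 and 8 together removed 519 bases and kept the canonical stop, with 460 of 633 codons. Exon 4 (chr1:23664247-23664354, 108 bases) was the shortest. Exon 8 was listed with 206 bases and, through an alternative 3′ splice site, with 215 bases (chr1:23644976-23645190), the longest in the gene. The 9 added bases lengthened the frame to 636 codons. Mutually exclusive exons gave 10 events.

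HNRNPU, also named scaffold attachment factor A, binds both RNA and chromatin. Its exon 2 (chr1:245025921-245026032, 112 bases) had the most events, 4. Loss of exon 2 alone ended the frame after 300 of 825 codons, and loss of exon 3 alone after 268. Together the 2 exons hold 186 bases, and their joint loss left 763 codons with the canonical stop. All 3 alternative 5′ splice site events used the 57 bases at the end of exon 1, which are coding in the canonical transcript. They joined exon 1 to exons 2, 3 and 4. With exon 2, the upstream site shortened the frame from 825 to 806 codons. The shortest listed exon was exon 13 (chr1:245018275-245018346, 72 bases) and the longest was exon 7 (chr1:245021313-245021576, 264 bases). Skipping either kept the canonical stop, with 801 and 737 codons. There were 4 events of mutually exclusive exons.

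Across the 10 genes the skipped exons had an ordinary length. Their median was 114.5 bases, from 26 to 277, against 114 bases over 67154 listed exons. In reading frame they stood higher than the whole table. A length that is a multiple of 3 was found in 44 of the 78 hnRNP exons, 56.4%, against 38.8% of all exons. The genes differed among themselves, from 8 of 8 in HNRNPA1 and 8 of 10 in HNRNPA2B1 to 3 of 8 in HNRNPK and HNRNPU and 1 of 7 in HNRNPC.

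**Figure D3:**
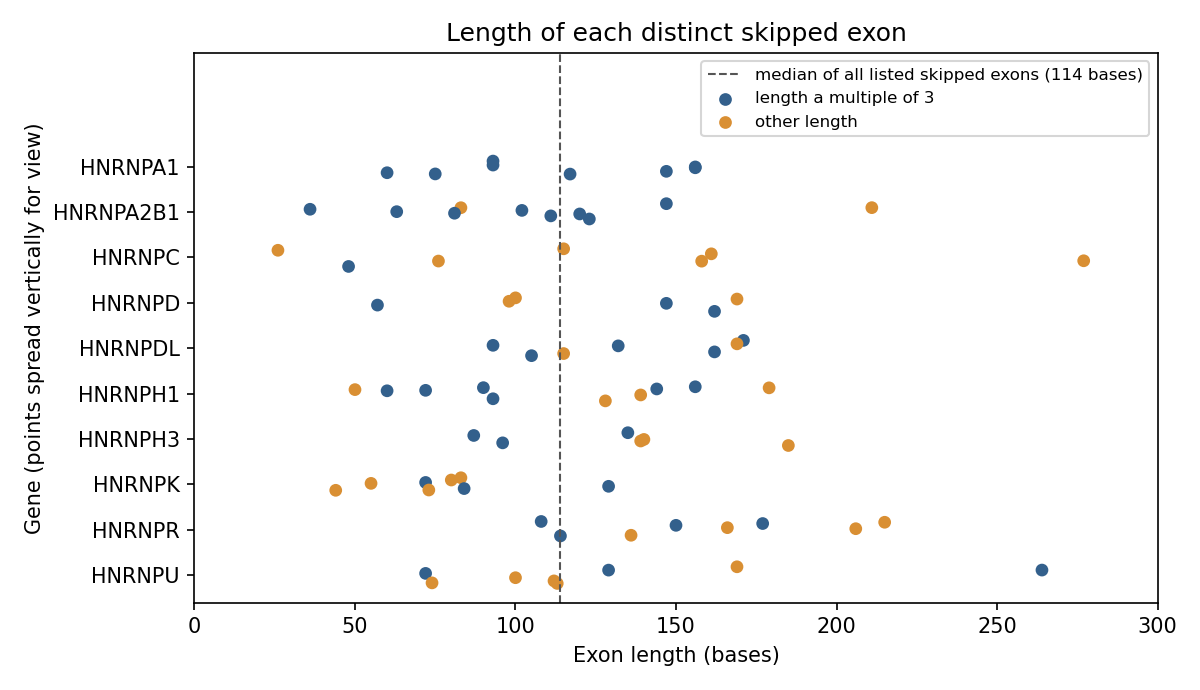
Length in bases (x axis) of each of the 78 skipped exons by gene (y axis), coloured by whether the length is a multiple of 3. The dashed line marks the median of all listed skipped exons, 114 bases, and hnRNP exons lie on both sides of it.

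To see what each skipping form would encode, it was built on the canonical transcript and read from the canonical start codon. Of the 118 distinct skipping forms, 59 read in frame to the canonical stop and 25 met an early stop, defined as another stop more than 50 bases before the last exon junction. Another stop closer to or past that junction ended 14 forms, and 9 lost the start codon. The coding sequence was unchanged in 4, and 7 had a flanking end outside the canonical transcript and were not read. Loss of the start codon depended most on the unit counted, at 7.63% of distinct forms and 11.6% of events. HNRNPA1 had no early stop in 12 forms, whereas HNRNPK had 4 in 9, HNRNPU 5 in 12 and HNRNPD 4 in 10. Inclusion forms, built in the same way, could also meet an early stop. Counted by event, 24 of 164 inclusion forms and 37 of 164 skipping forms did. These are predictions from sequence, and neither protein nor RNA decay was measured.

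**Figure D4:**
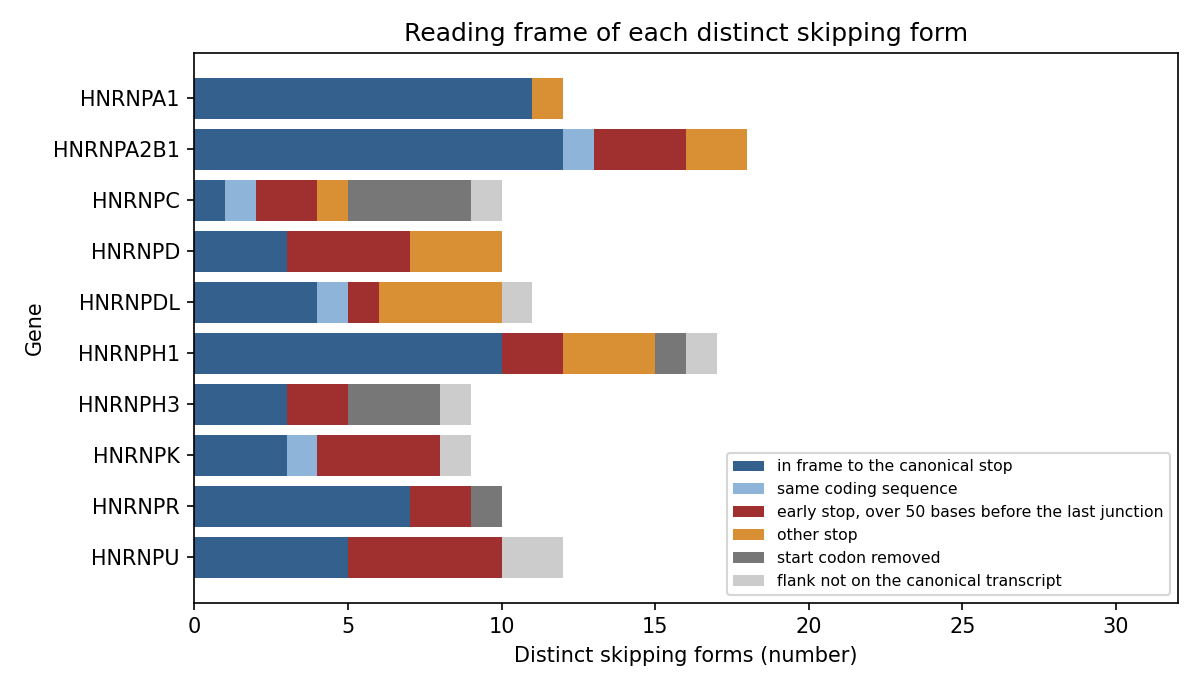
Number of distinct skipping forms (x axis) for each hnRNP gene (y axis), split by where the reading frame of the form ends. Forms in frame to the canonical stop make up 11 of 12 in HNRNPA1, and forms without the start codon make up 4 of 10 in HNRNPC.

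Single-exon and multi-exon skips differed in how many were annotated. Exactly 1 canonical exon was removed by 67 of the 118 distinct skip junctions, and 28 of those 67 are in GENCODE release 44. More than 1 was removed by 49, and 8 of those are. In 1 of these 8, in HNRNPK, the upstream flanking exon lies outside the canonical transcript. Canonical exon 1 is then counted as removed along with exon 2. Over all hnRNP genes 32.2% of distinct skip junctions were annotated, against 19.1% of the 88907 in the whole table. HNRNPA1 had 10 of 12, with 6 of 7 for single-exon and 4 of 5 for multi-exon skips. It thus held 4 of the 8 annotated multi-exon junctions. The same split over all genes is not given here, and the difference was not tested.

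Splice sites of the hnRNP exons were scored by how well each matches the annotated human sites, in bits, with higher scores for closer matches. All 78 exons had annotated 5′ and 3′ splice sites, as did nearly all listed exons, with 99.7% of 5′ and 99.5% of 3′ splice sites annotated. The mean 5′ splice site score was 7.37 (SD 2.82, 78 exons), against 7.77 (SD 2.82) over all listed exons. The mean 3′ splice site score was 8.30 (SD 4.41) against 9.10 (SD 3.47). Among exons between AG and GT, a limit chosen after seeing the data, the hnRNP mean minus the mean of all exons was -0.37 at 5′ and -0.56 at 3′ splice sites. These differences were not tested. Among the genes, HNRNPC had the highest median 3′ splice site score, 15.2, and HNRNPU the lowest median 5′ splice site score, 5.97.

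Sites outside the usual AG before and GT after the exon were found in 2 of the 78 exons. Exons between AG and GT made up 97.4% of the hnRNP exons and 98.9% of all listed exons. HNRNPU exon 10 (chr1:245019759-245019927, minus strand) has GC at its 5′ splice site. The 215-base form of HNRNPR exon 8 begins after TG. The scores rest on sites with GT and AG only, so the low scores of these sites, -10.40 and -12.97, are set by the pseudocount and do not grade them. Capitals mark exon bases in these sites, with the usual HNRNPR site, which scored 6.16, for comparison.
HNRNPU exon 10, 5′ splice site: AAGgcatgg
HNRNPR exon 8, 215-base form, 3′ splice site: gcttatatatctggctgttgGTT
HNRNPR exon 8, 206-base form, 3′ splice site: tctggctgttggtttaacagAGG
At the other alternative sites both ends could be scored. The downstream site of HNRNPC exon 4 scored 4.30 and the upstream site 6.25. For HNRNPH3 exon 4 the scores were 7.18 downstream and 6.33 upstream. HNRNPU exon 1 had 9.50 downstream and 10.35 upstream, and the HNRNPK last exon had 16.08 upstream and 14.34 downstream. The canonical transcript used the higher-scoring site in HNRNPC, HNRNPH3 and HNRNPK, and the lower-scoring site in HNRNPU. All 5 stretches had a length that is a multiple of 3.

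**Figure D5:**
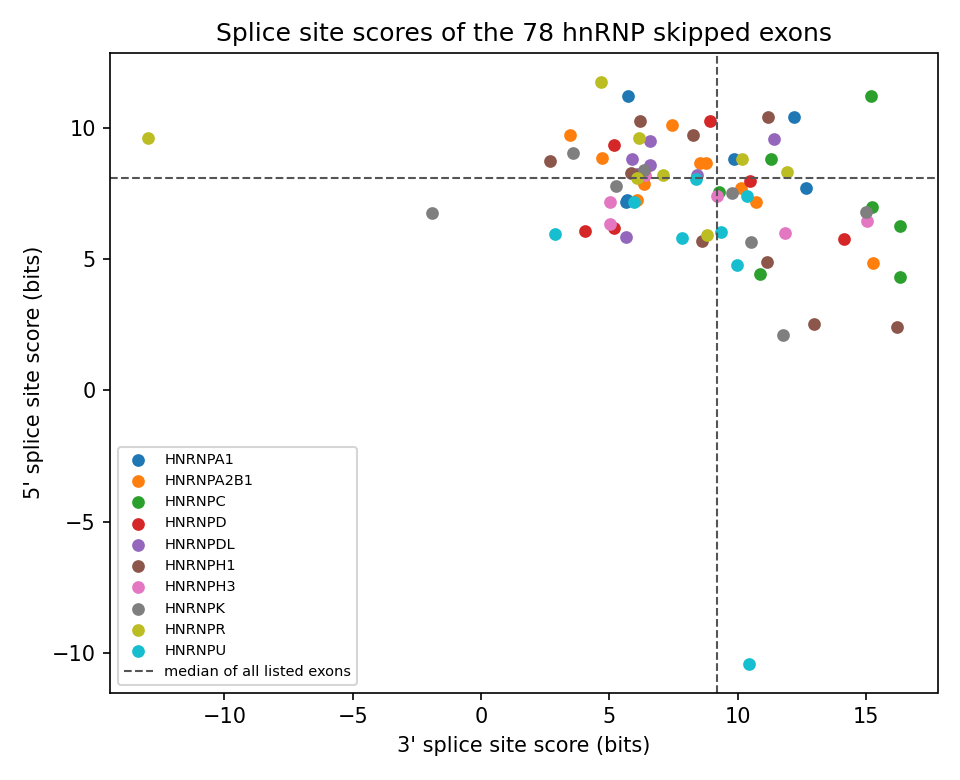
Score in bits of the 3′ splice site (x axis) and the 5′ splice site (y axis) of each of the 78 skipped exons, coloured by gene, with dashed lines at the medians of all listed exons. HNRNPR exon 8 in its 215-base form lies far to the left at -12.97 and HNRNPU exon 10 far down at -10.40, both with scores set by the pseudocount.

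Mutually exclusive exons of the hnRNP genes were built from the same exons. In all 88 events both exons were also listed as skipped exons, and in 68 the pair were neighbours in the canonical transcript. The lengths of the pair differed by a multiple of 3 in 42 events, and in 27 both forms read in frame to the canonical stop. At least 1 form had an early stop in 35 events. The same counts over the mutually exclusive exons of all genes are not given here. These counts therefore describe the hnRNP events and do not set them apart from other genes.

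Of 15 other hnRNP genes, 13 were listed. Together they had 201 skipped-exon events, 93 of mutually exclusive exons, 6 of alternative 5′ splice sites, 9 of alternative 3′ splice sites and 2 retained introns. HNRNPA0 and PCBP1 had no event of any type. Among the 13 listed, skipped-exon events per gene ran from 0 in HNRNPH2 and 6 in HNRNPLL to 28 in RALY and 46 in HNRNPM. RALY and HNRNPM thus exceeded the 25 of HNRNPA2B1. Many hnRNP genes have processed copies in the genome, and reads from a copy can be placed on the gene or the reverse. GENCODE names 74 pseudogenes after HNRNPA1, 9 after HNRNPC and 5 after HNRNPK, and none after HNRNPA2B1. Their part in the listed events was not tested.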

How the data were processed

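The authors sequenced polyA+ RNA of HEK293T cells, and the submitters' processing notes name STAR 2.5.1 and GRCh37. The deposited values used here are effective lengths in bases of both forms of each event, from 5 rMATS tables (version not given in the sources used here). Not used were 30 columns of reads and inclusion levels, which number the libraries without naming them, and 15 columns of the authors' comparison (p-value, FDR and inclusion level difference). Depth per library is not given here. Events were matched by gene symbol, and members and lists were chosen with earlier results of these data known. All 10 genes are named. For each, the exon with the most events (ties by lowest start), the shortest and longest exon, each alternative site and retained intron and the number of mutually exclusive exon events are given. Other exons were named after their values were seen. Splice site scores sum log2 of base frequency over 0.25 at 300873 annotated 5′ sites with GT (9 bases) and 300290 annotated 3′ sites with AG (23 bases), with a pseudocount of 0.5. Scoring and translation were tested on simulated data. Python 3.11.15, pandas 2.3.3, numpy 2.4.6, scipy 1.17.1 and matplotlib 3.10.9 were used.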

Additional observations from a re-analysis of the deposited data

How the results depend on the processing

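Of 17 alternative values for the hnRNP genes, 16 lay within the range allowed for their result. Only the splice site score differences could change direction, and none of them did. The other values are counts, medians and percentages, which cannot be negative. With each event counted, the median exon length was 123 bases, against 114.5 with each exon counted once, because exons in several events then weigh more. Merging overlapping exons left 75 of 78. Reading-frame shares by event in place of by distinct skip junction, limiting the splice site scores to exons between AG and GT, and counting as early any stop before the last junction were chosen after seeing the data. The inclusion level of hnRNP events, and its alternative of at least 20 reads, were not run because the columns do not name the samples. No paired analysis was possible because each group has 1 library and no comparison between them was made. Depth per library is not given here, and the reads that support each listed event were not used.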
